A study of Mus musculus with 12 samples.

Results

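Fat cells grown in culture from newborn mice were compared between a knockout of Xap5 and wild type by messenger RNA sequencing, across all genes. Xap5 is a nuclear protein that the mouse encodes in Fam50a. The 6 libraries described here are the cultured adipocytes of the study, chosen by their titles, out of 12 libraries in all. The other 6 came from white adipose tissue (WAT) of 42-day-old animals, 3 of wild type and 3 of the conditional knockout. In the cultures, 3 libraries were wild type (WT) and 3 were knockout (KO). Pre-adipocytes came from the subcutaneous white fat of pups at postnatal day 0 to 3, either wild-type or conditional knockout, and all 6 cultures were differentiated with insulin, dexamethasone and IBMX and kept on insulin. They were taken at day 8. The deletion is made by a Cre recombinase driven by the adiponectin promoter, which is active in cells that have begun to differentiate, so that cells of a culture that never began to become adipocytes would keep the gene. Nothing in the labels tells whether the 3 libraries of a group stem from different animals or different dishes, and p-values thus cover only the spread among these libraries, part of which may be technical.

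Differentiation of a pre-adipocyte runs through the early factors C/EBPβ and C/EBPδ to PPARγ and C/EBPα, which together turn on the genes of lipid storage, insulin-responsive glucose uptake and adipokine secretion. Mitochondria multiply during this process, while the fibroblast-like matrix and growth programme recedes. Cells isolated from the stroma of fat also carry along macrophages, endothelial cells and cells of the vessel wall. Loss of Xap5 in man and fish has been tied to faulty splicing, through the binding of the protein to the spliceosome.

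The labelled cell type was checked against its markers. Of 29 core adipocyte genes, 28 had enough reads to be tested. Their summed level ran from 32123 to 33620 CPM in WT and from 40485 to 45678 CPM in KO (CPM, read counts relative to a library size that TMM scaling has adjusted). Lep, the leptin gene, had 0 to 5 reads per library and was not tested. Markers of other cells were present too. Macrophage markers summed to 6236 to 7041 CPM in WT and 4338 to 5013 CPM in KO, and endothelial markers to 631 to 788 CPM in WT and 503 to 555 CPM in KO. In both sums the groups did not overlap. Of 20 lymphoid and mast cell markers only 3 reached the count filter, and of 14 mesothelial and epithelial markers only 1. Total counts were 11601138 to 12401278 in WT and 10863158 to 21773610 in KO, where replicates 2 and 3 were about as deep as each other and deeper than the other 4 libraries. Mitochondrially encoded genes took 8.90%, 9.33% and 12.1% of counts in WT and 11.1%, 13.9% and 15.1% in KO, with overlap. Y-linked genes summed to 173, 182 and 236 CPM in WT and 248, 248 and 263 CPM in KO. The part of depth, of the share of other cells, of Y-linked level and of the mitochondrial share in the results below was not tested, unless a value says otherwise.

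The target of the knockout, Fam50a, is located on chromosome X, bases 74313033 to 74320149 (GRCm38). It was at 57.9, 52.01 and 45.2 CPM in WT and 46.2, 42.9 and 41.1 CPM in KO. The highest KO library lay just above the lowest WT library, and the difference did not pass the threshold used throughout, a Benjamini-Hochberg adjusted p under 0.05 (log2 fold change -0.26, SE 0.12, adjusted p = 0.134). The call was made after correction for transcript length and GC content (-0.27, adjusted p = 0.0284) and without WT replicate 3 (-0.34, adjusted p = 0.0258). A gene-level count would include reads of any exons left by the deletion and of cells in which Cre was not active. Neither was measured, so that the count does not check the genotype labels. In WAT, Fam50a was lower in the conditional knockout by the same test (log2 fold change -0.60, adjusted p = 0.0395). Fam50b, a retrocopy of Fam50a, had 0 reads in every culture library. Of 13 tested genes within 100 kb of Fam50a, 2 passed (15.4%, below the 19.5% of all genes). Plxna3, a semaphorin receptor subunit, was lower (log2 fold change -0.75, SE 0.25, adjusted p = 0.0387), and Lage3, a subunit of a transfer RNA modifying complex, was higher (log2 fold change 0.35, SE 0.12, adjusted p = 0.0377). Both calls were lost with each omission of 1 library except WT replicate 1 for Plxna3 and WT replicate 3 for Lage3 (adjusted p from 0.0735 to 0.143 and from 0.0526 to 0.152).

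Of 12587 genes tested, 2459 (19.5%) differed between KO and WT. In KO 1125 genes (8.94%) were higher and 1334 (10.6%) lower. Most changes were small. The median fold among the higher genes was 1.40 and among the lower genes 1.46, and 188 genes (1.49%) differed at least 2-fold, 56 of them higher (0.445%) and 132 lower (1.05%). The median log2 fold change over all tested genes was -0.02. In 4629 genes (36.8%) the 3 KO libraries lay wholly above or wholly below the 3 WT libraries. With scaling by library size only, 786 genes were higher and 1765 lower, so that the higher share of the calls went from 45.8% to 30.8%. The transcripts of higher genes were shorter (median 2684 bases) and lower in GC content (44.9%) than those of lower genes (4082 bases and 54.0%), beside 3418 bases and 49.7% in genes that were not called. Removing the trend of the fold change with length and GC content kept 1580 of the 2459 calls (64.3%) and called 2526 in all. Leaving out WT replicate 2 kept 881 of the calls, and 897 genes passed. In 1 fit over all 4 groups, which shares 1 estimate of spread with the tissue, 146 genes passed and 145 of them were among the 2459. That fit ended the calls of the genes named below except Dnm1, Sirt3, Cyp2e1, Scg2, Sarnp, Thnsl1, Zfp949, Dynlt1b, Alox5, Cd163, Marco, Siglec1, Stab1, F13a1, Cd5l, Fcna, Ccl12, Vwf, Hspg2, Col5a3, Col15a1, Ctsh, Gaa, Tfe3, Ddit4, Psmd6 and Prpf38a, and it held no mitochondrially encoded gene.

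**Figure D1:**
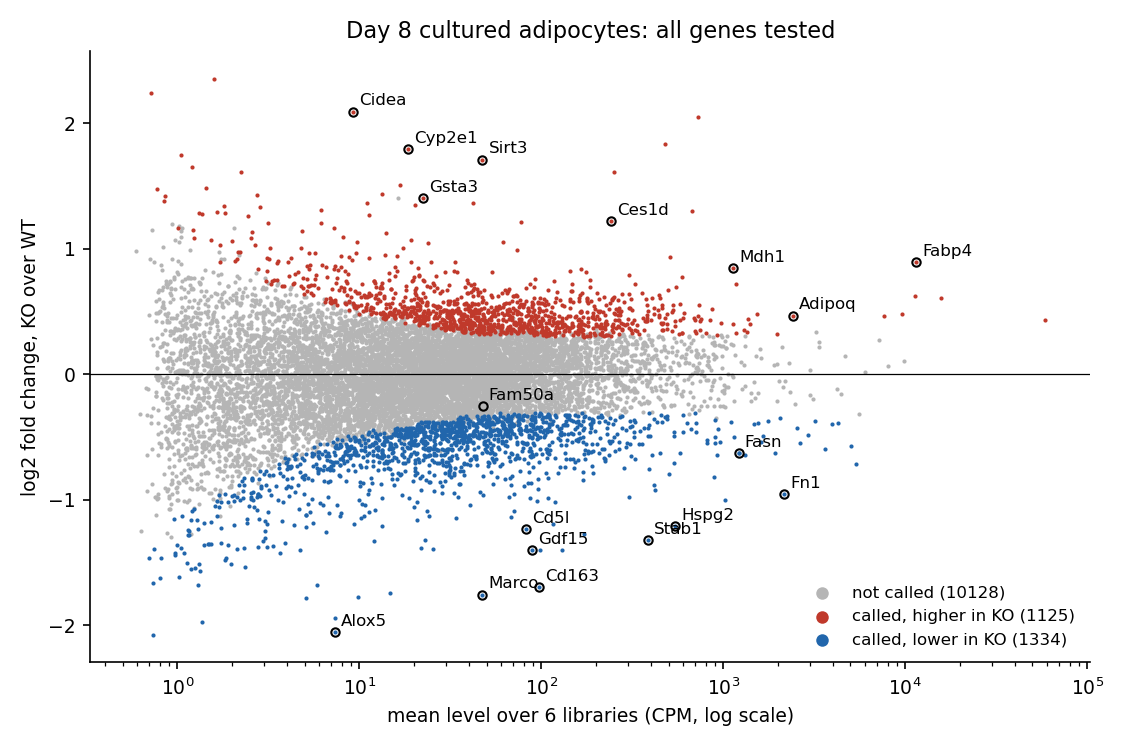
Each point is 1 of 12587 genes, with its mean level over the 6 libraries (CPM, log scale) on the x axis and its log2 fold change of KO over WT on the y axis. Genes called higher (1125, red) and lower (1334, blue) lie on both sides of 0, and circled genes are described in the text.

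Among the largest rises stood genes of adipocyte metabolism. Sirt3 encodes the main protein deacetylase of the mitochondrial matrix and lies on chromosome 7 from 140863663 to 140882309. It was at 23.1, 20.6 and 22.7 CPM in WT and 81.98, 66.7 and 69.2 CPM in KO, a 3.28-fold rise with no overlap (log2 fold change 1.71, SE 0.12, adjusted p = 1.84e-09). Cyp2e1, a cytochrome P450 that oxidises ethanol and fatty acids, was at 9.55, 8.82 and 6.49 CPM in WT and 28.6, 31.8 and 25.8 CPM in KO (log2 fold change 1.80, SE 0.16, adjusted p = 9.24e-08). Cidea, a lipid droplet protein of brown and beige fat, was at 5.07, 2.27 and 3.09 CPM in WT and 17.7, 10.96 and 16.2 CPM in KO (log2 fold change 2.09, SE 0.24, adjusted p = 2.69e-06). All 3 KO libraries stood above all 3 WT libraries in each of these genes. Ces1d, a lipase of the carboxylesterase family, was at 145, 145 and 143 CPM in WT and 360.01, 323 and 329 CPM in KO (log2 fold change 1.22, SE 0.11, adjusted p = 7.98e-08). Gsta3, a glutathione transferase, was at 13.3, 11.8 and 11.7 CPM in WT and 30.6, 30.9 and 36.05 CPM in KO (log2 fold change 1.40, SE 0.14, adjusted p = 5.25e-07). Angptl8, an insulin-induced inhibitor of lipoprotein lipase, was at 3.89, 4.45 and 4.99 CPM in WT and 11.6, 9.34 and 9.26 CPM in KO (log2 fold change 1.16, SE 0.20, adjusted p = 0.000334). Scg2, a granin of secretory vesicles, was at 8.53, 6.05 and 7.05 CPM in WT and 18.8, 21.8 and 17.97 CPM in KO (log2 fold change 1.44, SE 0.17, adjusted p = 4.44e-06). Sarnp, a protein of messenger RNA export, was at 5.83, 8.57 and 11.7 CPM in WT and 20.3, 15.7 and 38.4 CPM in KO (log2 fold change 1.51, SE 0.25, adjusted p = 0.000316), with KO replicate 3 the highest. Thnsl1, a threonine synthase-like gene, and Zfp949, a zinc finger gene, rose by log2 fold changes of 1.27 and 1.37. Amy1, an amylase gene with near-identical copies (1.21), and Dynlt1b, 1 of several near-identical dynein light chain genes (1.35), are uncertain, since the authors' counting could have split their reads.

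**Figure D2:**
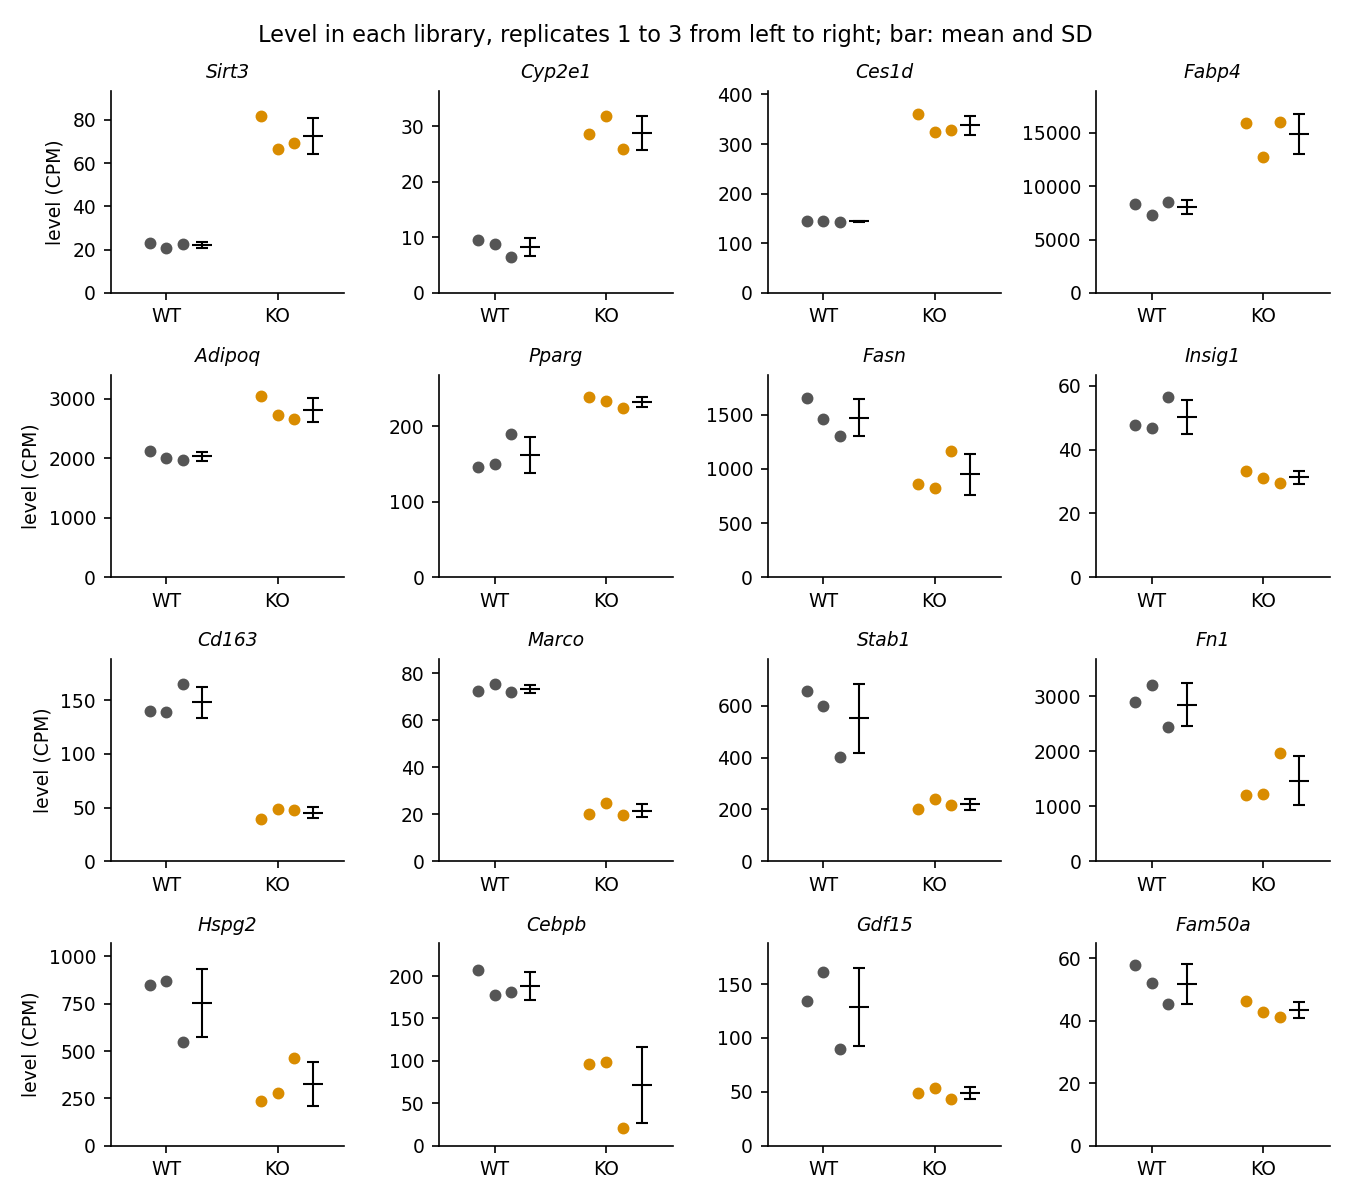
Level (CPM, linear axes from 0) of 16 genes in each library, WT in grey and KO in orange, with replicates 1 to 3 from left to right and the mean and SD beside them. Sirt3 stood between 66.7 and 82.0 CPM in KO against 20.6 to 23.1 CPM in WT, Cebpb was lowest in KO replicate 3, and Fam50a overlapped between groups.

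Mitochondrial genes rose across several groups. Of 60 nuclear-encoded subunits of the respiratory chain, 33 rose and 1 fell, with a median log2 fold change of 0.33, beside -0.02 over all genes tested. By complex, 15 of 23 subunits of complex I rose, 1 of 4 of complex II, 3 of 7 of complex III, 6 of 11 of complex IV with cytochrome c, and 8 of 15 of the ATP synthase. Ndufa5, a subunit of complex I, was at 67.8, 57.6 and 71.6 CPM in WT and 114, 107 and 103 CPM in KO (log2 fold change 0.72, SE 0.11, adjusted p = 0.000197). Uqcrh, the hinge protein of complex III, was at 475, 399.995 and 390.1 CPM in WT and 732, 619 and 701 CPM in KO (log2 fold change 0.70, SE 0.12, adjusted p = 0.0003). Cox7a2, a subunit of cytochrome oxidase, was at 257, 230.5 and 252 CPM in WT and 449, 369.8 and 401 CPM in KO (log2 fold change 0.72, SE 0.11, adjusted p = 0.000153). No KO library overlapped a WT library in these 3 genes. Atp5k, a small subunit of the ATP synthase, was at 48.9, 33.5 and 34.2 CPM in WT and 70.2, 75.1 and 60.5 CPM in KO (log2 fold change 0.82, SE 0.14, adjusted p = 0.000325). Cycs, which encodes cytochrome c itself, was at 351, 346 and 452 CPM in WT and 628, 564 and 634 CPM in KO (log2 fold change 0.67, SE 0.12, adjusted p = 0.000586). Cox6a1, another subunit of cytochrome oxidase, was the 1 member that fell (log2 fold change -0.36, SE 0.12, adjusted p = 0.0341), and its call was lost without KO replicate 2 (adjusted p = 0.0671), KO replicate 3 (0.186), WT replicate 1 (0.114) or WT replicate 2 (0.101). The rises of this group numbered 16 without WT replicate 2, and without KO replicate 1 they numbered 21. After length and GC correction 23 rose and 3 fell, and the median was 0.19.

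In the mitochondrial genome itself 8 of 13 protein genes rose, and the fold changes of all 13 were above 0 (median 0.53). The groups did not overlap in 5 of the 13, beside 36.8% of all genes. Their summed level overlapped, at 87204 to 118512 CPM in WT and 113613 to 156146 CPM in KO. ND1, a subunit of complex I, was at 7744, 7903 and 11082 CPM in WT and 11440.2, 14172 and 15640.2 CPM in KO (log2 fold change 0.63, SE 0.15, adjusted p = 0.00495). COX2, the second subunit of cytochrome oxidase, was at 281, 206 and 361 CPM in WT and 476, 1664 and 1374 CPM in KO (log2 fold change 2.05, SE 0.26, adjusted p = 1.58e-05). In KO replicate 1 COX2 stood nearer to the WT libraries than to the other 2 KO libraries. COX3 was at 177, 125 and 324 CPM in WT and 383, 592 and 1254 CPM in KO (log2 fold change 1.83, SE 0.29, adjusted p = 0.000186), with WT replicate 3 near KO replicate 1. ATP6, a subunit of the ATP synthase, was at 598, 257 and 311 CPM in WT and 509, 990.4 and 1367 CPM in KO (log2 fold change 1.30, SE 0.25, adjusted p = 0.0011), and here KO replicate 1 lay within the WT range and DESeq2 did not call the gene (adjusted p = 0.0664). Nuclear copies of mitochondrial sequence could share reads with these genes, so that their levels are uncertain. Without WT replicate 2, 5 of the 13 passed.

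Part of the genes that feed the respiratory chain rose. Of 29 genes of fatty acid oxidation 13 rose and 1 fell (median 0.31). Etfa, an electron carrier from the acyl-CoA dehydrogenases, was at 369, 334 and 423 CPM in WT and 575, 496 and 576 CPM in KO (log2 fold change 0.55, SE 0.12, adjusted p = 0.00228), and Decr1, which handles unsaturated acyl-CoA, was at 217, 196 and 223 CPM in WT and 329.8, 277 and 308 CPM in KO (log2 fold change 0.52, SE 0.11, adjusted p = 0.00229). Both groups were apart in each gene. Cpt1a, which brings fatty acids into mitochondria, fell (log2 fold change -0.50, SE 0.14, adjusted p = 0.0126), a call lost without KO replicate 1 (adjusted p = 0.0729) and WT replicate 2 (0.0859). Of 21 genes of the tricarboxylic acid (TCA) cycle and its shuttles 8 rose and 1 fell (median 0.25). Mdh1, the cytosolic malate dehydrogenase, was at 797, 754 and 883 CPM in WT and 1494, 1328 and 1551 CPM in KO (log2 fold change 0.85, SE 0.12, adjusted p = 3.27e-05), while Idh1, the cytosolic isocitrate dehydrogenase that makes NADPH, was at 449.6, 431 and 608 CPM in WT and 311, 308 and 333 CPM in KO (log2 fold change -0.65, SE 0.12, adjusted p = 0.00108). Of 25 genes of branched-chain amino acid breakdown 14 rose and 0 fell (median 0.35). Among them Bcat2, the first enzyme of the pathway, was at 219.8, 194 and 170.1 CPM in WT and 329, 277 and 275 CPM in KO (log2 fold change 0.59, SE 0.12, adjusted p = 0.00142), and Mmut, the methylmalonyl-CoA mutase at its end, was at 102, 103 and 138 CPM in WT and 173, 174 and 196 CPM in KO (log2 fold change 0.66, SE 0.12, adjusted p = 0.000767). Of 69 mitochondrial ribosomal proteins 22 rose and 0 fell (median 0.26), 15 of 40 of the large and 7 of 29 of the small subunit. Mrpl42 was at 70.5, 74.02 and 99.1 CPM in WT and 115, 118 and 128 CPM in KO (log2 fold change 0.57, SE 0.12, adjusted p = 0.0029). Smaller sets were mixed. Of 32 genes of glucose use 6 rose and 3 fell (median -0.05), and of 30 immediate early and heat shock genes 6 rose and 8 fell (median -0.06). The matrix chaperones Hspd1 (0.55, adjusted p = 0.00213) and Hspe1 (0.61, adjusted p = 0.0005) were among the latter rises, and Ldhb (0.75, adjusted p = 0.000178) and Pdhb (0.50, adjusted p = 0.00363), which act around pyruvate, among the former. Glucose genes that rose numbered 2 without WT replicate 2, and those that fell 1 without KO replicate 1 or KO replicate 2 and 5 without WT replicate 3. Immediate early and heat shock genes had 2 rises and 5 falls without WT replicate 1 and 3 of each without WT replicate 2. Without WT replicate 2, 5 genes of fatty acid oxidation, 3 of the TCA cycle, 5 of branched-chain amino acid breakdown and 5 mitochondrial ribosomal proteins rose. Without KO replicate 1 the last 3 groups had 5, 9 and 12, without KO replicate 2 the last 2 had 8 and 14, and with library size only the mitochondrial ribosome had 14. After length and GC correction the medians were 0.28 for fatty acid oxidation and 0.16 for the TCA cycle. They were 0.28 for branched-chain amino acid breakdown and 0.16 for the mitochondrial ribosome.

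**Figure D3:**
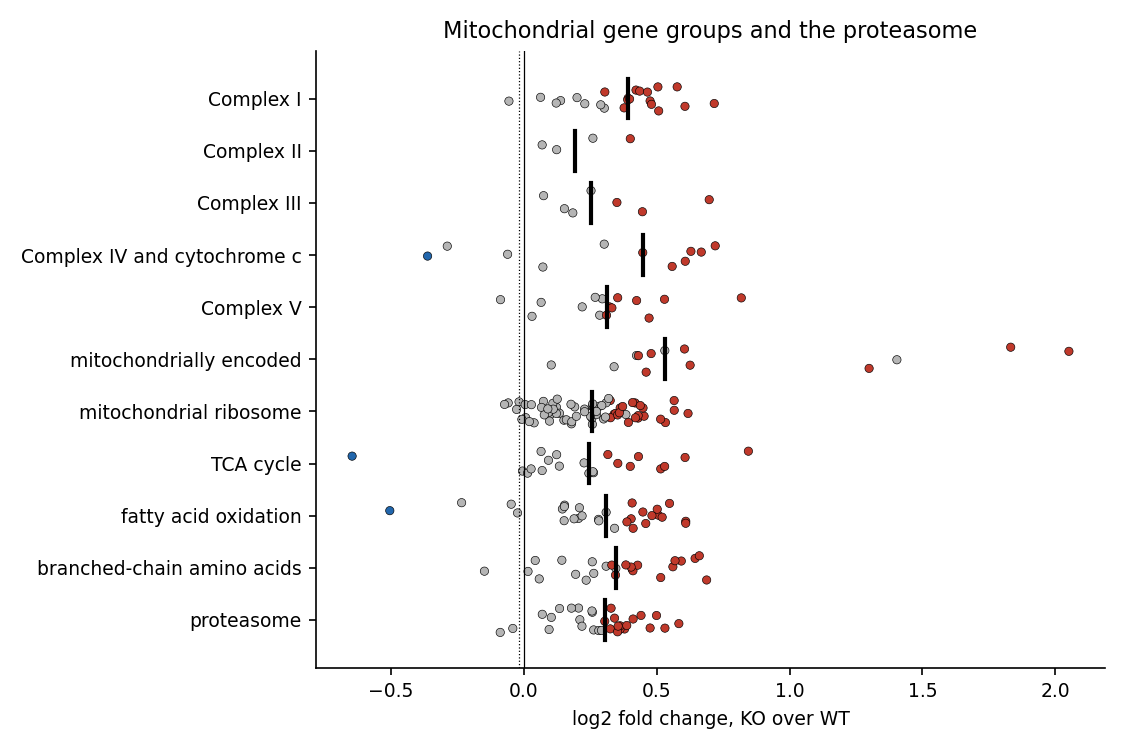
Log2 fold change of KO over WT (x axis) for each member of 11 gene groups, with genes called higher in red, lower in blue and not called in grey, the group's median as a black bar and the median of all genes as a dotted line. The median of each group lies above 0, from 0.19 for complex II to 0.53 for the mitochondrially encoded genes.

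Many promoters of respiratory chain genes carry a site for the factor NRF1, which drives their shared expression. To show what such promoters look like among the genes that rose, promoter windows of 3 respiratory chain genes are printed. Genes of 1 chromosome were left out of the choice. Of the rest, the 3 have the smallest p among those that rose, hold the motif and have a single listed start. The windows run from 250 bases before to 30 bases after the start. They are RefSeq sequences of GRCm38.p6, 5′ to 3′ on the gene's strand, and capitals mark matches on either strand to GCGCNTGCG, the core of the NRF1 site, where N is any base. Atp5k is at chr5:108434370-108434649 (minus strand), Cycs at chr6:50566540-50566819 (minus strand), and Atp5h, a stalk subunit of the ATP synthase, at chr11:115419890-115420169 (minus strand).
Atp5k: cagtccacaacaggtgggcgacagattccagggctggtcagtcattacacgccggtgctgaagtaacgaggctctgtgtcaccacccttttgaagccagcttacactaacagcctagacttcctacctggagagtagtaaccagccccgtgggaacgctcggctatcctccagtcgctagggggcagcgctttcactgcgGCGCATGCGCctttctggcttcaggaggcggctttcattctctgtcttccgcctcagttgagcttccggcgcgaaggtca
Cycs: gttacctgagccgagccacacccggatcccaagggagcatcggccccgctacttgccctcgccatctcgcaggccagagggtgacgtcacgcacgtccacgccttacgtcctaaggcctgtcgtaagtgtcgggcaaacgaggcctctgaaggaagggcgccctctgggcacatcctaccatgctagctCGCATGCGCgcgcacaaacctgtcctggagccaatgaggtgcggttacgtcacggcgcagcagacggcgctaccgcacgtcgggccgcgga
Atp5h: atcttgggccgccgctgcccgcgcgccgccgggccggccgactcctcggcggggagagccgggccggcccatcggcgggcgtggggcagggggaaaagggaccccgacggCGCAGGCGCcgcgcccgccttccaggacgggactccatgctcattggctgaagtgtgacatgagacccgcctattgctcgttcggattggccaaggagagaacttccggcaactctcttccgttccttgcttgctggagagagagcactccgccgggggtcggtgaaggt
Atp5k held 2 overlapping matches and the others 1 each, read here on the other strand. Atp5h was at 380.04, 363 and 381 CPM in WT and 566, 503 and 554 CPM in KO (log2 fold change 0.53, SE 0.11, adjusted p = 0.00168). Of 12587 tested genes 10027 had such a window, and 1451 of them (14.5%) held the motif. It was in 158 of 904 genes that rose (17.5%), in 84 of 1019 that fell (8.24%), in 16 of 48 respiratory chain genes (33.3%), in 17 of 61 mitochondrial ribosomal genes (27.9%) and in 6 of 25 proteasome genes (24.0%). These shares describe letters in a window and say nothing of binding.

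Several genes of the mature adipocyte rose in KO. Of 28 core adipocyte genes 9 rose and 2 fell (median 0.12). Fabp4, the fatty acid carrier of adipocytes, was at 8310.4, 7287 and 8498 CPM in WT and 15979, 12788 and 16024 CPM in KO, a 1.86-fold rise with no overlap (log2 fold change 0.89, SE 0.13, adjusted p = 6.99e-05). Adipoq, which encodes adiponectin and whose promoter drives the Cre, was at 2118, 2003 and 1967 CPM in WT and 3036, 2719.8 and 2662 CPM in KO (log2 fold change 0.47, SE 0.11, adjusted p = 0.00632). Pparg, the master factor of adipogenesis, was at 146, 151 and 189 CPM in WT and 238, 233 and 225 CPM in KO (log2 fold change 0.52, SE 0.11, adjusted p = 0.00317). Thrsp, a regulator of lipogenesis, was at 287, 202 and 248 CPM in WT and 404, 317 and 397 CPM in KO (log2 fold change 0.60, SE 0.13, adjusted p = 0.00245). All KO libraries were above all WT libraries in these 4 genes. Other hallmarks did not pass. Plin1, the main coat protein of lipid droplets, was at 739.8, 661 and 582 CPM in WT and 731, 689 and 666 CPM in KO (log2 fold change 0.07, SE 0.11, adjusted p = 0.692), and the values for the lipases Pnpla2 (0.09, adjusted p = 0.643) and Lipe (0.16, adjusted p = 0.369) and for the insulin-responsive glucose transporter Slc2a4 (0.21, adjusted p = 0.234) also overlapped. After length and GC correction these 4 genes were called higher (adjusted p = 0.0315, 0.0406, 0.0032 and 0.0135). Without WT replicate 2, 4 core genes rose, and without KO replicate 1, 5 did. The 2 falls numbered 0 without WT replicate 1 or WT replicate 2 and 1 without any of the KO libraries and after length and GC correction.

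Of 25 factors that promote adipogenesis 2 rose, Pparg and the liver X receptor Nr1h3 (0.47, adjusted p = 0.00647), and 7 fell. Cebpb, the early C/EBP factor, was at 208, 177 and 182 CPM in WT and 96.2, 98.8 and 20.3 CPM in KO (log2 fold change -1.40, SE 0.29, adjusted p = 0.00198). Its KO replicate 3 was far below the other 2 KO libraries, and DESeq2 did not call it (adjusted p = 0.117). Cebpd, its partner, was at 119.5, 94.7 and 80.5 CPM in WT and 75.04, 73.2 and 52.999 CPM in KO (log2 fold change -0.55, SE 0.14, adjusted p = 0.00856; adjusted p = 0.0775 without WT replicate 1). Cebpa, which acts later with PPARγ, was at 567, 424 and 419 CPM in WT and 369, 384 and 346 CPM in KO (log2 fold change -0.36, SE 0.12, adjusted p = 0.0392), and its call was lost without each library except WT replicate 3 (adjusted p from 0.0738 to 0.322) and after length and GC correction (0.26). After length and GC correction 5 of the list rose and 5 fell. Falls numbered 2 without WT replicate 1 or WT replicate 2, 3 without KO replicate 1 and 4 without KO replicate 2. Among factors that restrain adipogenesis, 1 of 21 rose (4.76%) and 3 fell (14.3%), beside 8.94% and 10.6% of all genes. Sfrp2, a secreted Wnt modulator of progenitors, was at 84.2, 91.2 and 85.4 CPM in WT and 57.2, 62.2 and 59.7 CPM in KO (log2 fold change -0.54, SE 0.11, adjusted p = 0.00164), and Tcf7l2, a Wnt effector, was at 18.4, 17.5 and 17.1 CPM in WT and 8.72, 9.75 and 13.6 CPM in KO (log2 fold change -0.71, SE 0.17, adjusted p = 0.00523). Of 26 markers of pre-adipocytes and fibroblasts 6 fell (23.1%) and 1 rose (median -0.17), and their summed level was 8533 to 9355 CPM in WT and 7087 to 7769 CPM in KO, with no overlap. Pdgfrb, a growth factor receptor of stromal cells, was at 297, 325 and 262 CPM in WT and 179.6, 215 and 232 CPM in KO (log2 fold change -0.50, SE 0.12, adjusted p = 0.00541; adjusted p = 0.0718 without WT replicate 2 and 0.0692 after length and GC correction), and Lum, lumican, was the member that rose (log2 fold change 0.43, SE 0.13, adjusted p = 0.0242). Falls numbered 1 without WT replicate 2, and rises 4 without WT replicate 3 and 0 without WT replicate 1, WT replicate 2 or KO replicate 1 and after length and GC correction. The progenitor genes Pdgfra (-0.33, adjusted p = 0.0663) and Dlk1 (0.07, adjusted p = 0.711) did not pass. Dlk1 was called higher after length and GC correction (adjusted p = 0.0215), and Pdgfra lower with library size only (0.0306), with no count filter (0.046) or without KO replicate 3 (0.0334).

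Genes of lipid synthesis fell in part, beside 8.94% higher and 10.6% lower over all genes. Of 25 genes of fatty acid synthesis and desaturation 12 fell and 3 rose (median -0.38). Without WT replicate 2, KO replicate 1 or KO replicate 3, 1 rose. Scd1, the main stearoyl-CoA desaturase, was at 5713, 5561 and 6703 CPM in WT and 3283, 3983 and 4837 CPM in KO (log2 fold change -0.57, SE 0.14, adjusted p = 0.00544). Scd2, a second desaturase, was at 199, 175 and 212 CPM in WT and 95.6, 119.7 and 148 CPM in KO (log2 fold change -0.69, SE 0.13, adjusted p = 0.00104). Fasn, the fatty acid synthase, was at 1656, 1462 and 1307 CPM in WT and 865, 822 and 1169 CPM in KO (log2 fold change -0.63, SE 0.13, adjusted p = 0.00213), with KO replicate 3 nearest to WT, and its call was lost after length and GC correction (adjusted p = 0.158). Acss2, which makes acetyl-CoA from acetate, was at 208, 178 and 187 CPM in WT and 139, 118 and 147 CPM in KO (log2 fold change -0.50, SE 0.11, adjusted p = 0.00364). The list's sum was 10414 to 11653 CPM in WT and 7270 to 9372 CPM in KO, with no overlap. Of 30 cholesterol genes 8 fell and 0 rose (median -0.23). Insig1, the sterol-regulated anchor of SREBP, was at 47.7, 46.7 and 56.4 CPM in WT and 33.4, 31.1 and 29.5 CPM in KO (log2 fold change -0.69, SE 0.12, adjusted p = 0.000539), and Srebf2, the factor of the pathway, at 112, 114 and 93.6 CPM in WT and 72.04, 74.3 and 72.2 CPM in KO (log2 fold change -0.55, SE 0.11, adjusted p = 0.00178). Of 32 genes of insulin and IGF1 signalling 7 fell (21.9%) and 0 rose (median -0.24). Irs2, an adaptor of the insulin receptor, was at 64.1, 66.5 and 59.5 CPM in WT and 25.8, 35.6 and 35.4 CPM in KO (log2 fold change -0.96, SE 0.13, adjusted p = 2.57e-05). The cholesterol genes had 5 falls without WT replicate 2, as without KO replicate 1, and 4 insulin genes, as without WT replicate 1, KO replicate 1 or KO replicate 2. Length and GC correction left 2 insulin genes lower and 2 higher. The lipid droplet and triglyceride list held 5 higher (19.2%) and 4 lower (15.4%) of 26 (median 0.01, and -0.05 with library size only). The lipolysis list held 5 higher and 2 lower of 25 (median 0.04, and -0.02 with library size only). After length and GC correction the rises of both lists numbered 9 and 10, without WT replicate 2 they numbered 1 and 2, and without KO replicate 1 or KO replicate 2 they numbered 2 and 3. With library size only 3 lipid droplet genes rose. Falls among them numbered 0 without WT replicate 2, 1 without WT replicate 1 or KO replicate 2 and 2 without KO replicate 1 or KO replicate 3, and falls in the lipolysis list 0 without WT replicate 1 or WT replicate 2.

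Of 20 thermogenic genes 6 rose and 1 fell (median 0.21). Beside Cidea, Cox8b, a muscle and brown fat subunit of cytochrome oxidase, was at 16.8, 10.00 and 13.5 CPM in WT and 26.1, 26.2 and 22.8 CPM in KO (log2 fold change 0.90, SE 0.16, adjusted p = 0.000661). Ucp1, the uncoupler of brown fat, did not pass, at 1.86, 0.672 and 1.35 CPM in WT and 1.31, 0.836 and 1.70 CPM in KO (log2 fold change -0.02, SE 0.40, adjusted p = 0.983). Without WT replicate 2 or KO replicate 1, 2 of these genes rose. The detoxification list held 11 higher (31.4%) and 2 lower (5.71%) of 35 (median 0.17). Aox1, an aldehyde oxidase, was at 47.3, 45.7 and 53.9 CPM in WT and 90.8, 93.4 and 108 CPM in KO (log2 fold change 0.99, SE 0.12, adjusted p = 4.65e-06), and Fmo1, a flavin monooxygenase, at 127, 111 and 145 CPM in WT and 222, 215 and 236 CPM in KO (log2 fold change 0.81, SE 0.11, adjusted p = 5.53e-05). Without WT replicate 1, WT replicate 2 or KO replicate 2, 7 of the list rose. Its falls numbered 0 without WT replicate 1 or KO replicate 2, 1 without WT replicate 2, 5 without KO replicate 3 and 6 after length and GC correction. The antioxidant and ferroptosis list, which holds glutathione transferases, was mixed, with 10 higher (23.8%) and 7 lower (16.7%) of 42 (median 0.08). Its summed level overlapped, at 18228 to 20284 CPM in WT and 17179 to 19913 CPM in KO. Without WT replicate 2 it had 6 rises and 3 falls. Glutathione transferases Gsta4 (0.91, adjusted p = 0.00154), Mgst1 (0.52, adjusted p = 0.00314) and Mgst3 (0.48, adjusted p = 0.00352) rose, while Hmox1, the haem oxygenase, was at 968, 1005 and 890.2 CPM in WT and 693, 678 and 621 CPM in KO (log2 fold change -0.52, SE 0.11, adjusted p = 0.0022).

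**Figure D4:**
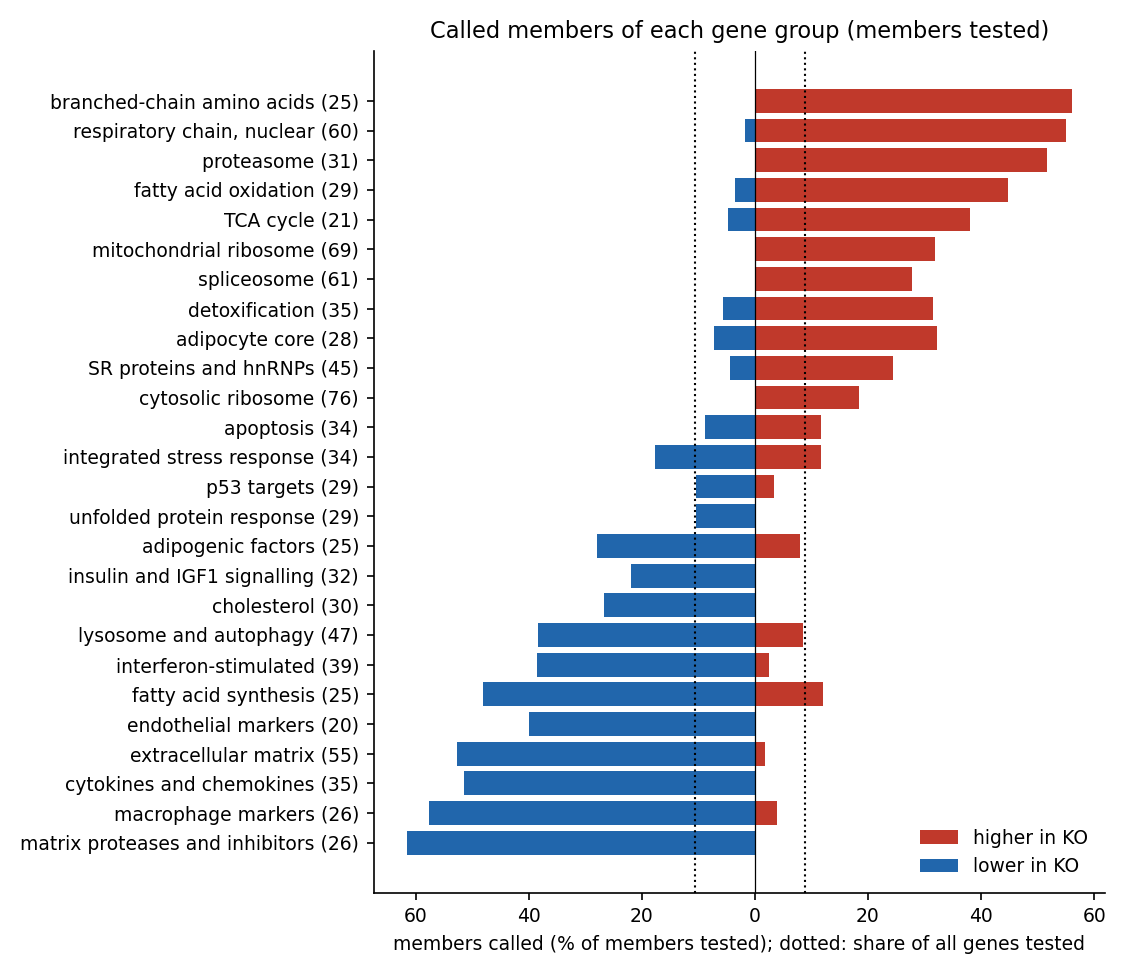
Share of tested members (%, x axis) called higher (red, to the right) and lower (blue, to the left) in KO for 26 gene groups, with the number tested in brackets. Dotted lines mark the shares over all genes tested, 8.94% higher and 10.6% lower. Mitochondrial groups and the proteasome extend to the right, and macrophage, cytokine and matrix groups to the left.

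Macrophage genes formed the other pole. Of 26 macrophage markers 15 fell and 1 rose (median -0.43), with no overlap between groups in their summed level. In bulk samples fewer cells of a type and less RNA per cell cannot be told apart. Cd163, the haemoglobin scavenger receptor of resident macrophages on chromosome 6 from 124304636 to 124330529, was at 139.97, 139 and 165 CPM in WT and 39.6, 48.6 and 47.98 CPM in KO (log2 fold change -1.70, SE 0.12, adjusted p = 1.47e-09). Marco, a scavenger receptor, was at 72.2, 75.4 and 72.1 CPM in WT and 20.2, 24.6 and 19.9 CPM in KO (log2 fold change -1.76, SE 0.12, adjusted p = 1.47e-09). Siglec1, a sialic acid receptor, was at 167, 181 and 133 CPM in WT and 61.2, 75.9 and 73.02 CPM in KO (log2 fold change -1.19, SE 0.12, adjusted p = 8.73e-07). The KO libraries lay below the WT libraries in all 3 genes. Other genes known from macrophages fell as well. Stab1, a scavenger receptor of macrophages and sinusoidal endothelium, was at 655, 598 and 401 CPM in WT and 202, 242 and 216 CPM in KO (log2 fold change -1.33, SE 0.14, adjusted p = 8.87e-07), F13a1, a transglutaminase of resident macrophages, at 209, 238 and 282 CPM in WT and 79.1, 115 and 106 CPM in KO (log2 fold change -1.27, SE 0.13, adjusted p = 8.73e-07), and Cd5l, a secreted macrophage protein, at 105, 124 and 119 CPM in WT and 47.6, 51.6 and 48.1 CPM in KO (log2 fold change -1.24, SE 0.11, adjusted p = 9.24e-08). Alox5, the 5-lipoxygenase of leukotriene synthesis, was at 12.5, 12.6 and 10.5 CPM in WT and 2.44, 3.62 and 2.34 CPM in KO, the largest fall named here (log2 fold change -2.05, SE 0.21, adjusted p = 6.11e-07). Fcna, a ficolin of the complement system, was at 163, 146 and 116 CPM in WT and 52.9, 58.8 and 49.5 CPM in KO (log2 fold change -1.40, SE 0.13, adjusted p = 9.24e-08). Clec4a2, a lectin receptor, was the marker that rose (log2 fold change 0.68, SE 0.16, adjusted p = 0.00601; adjusted p = 0.192 after length and GC correction). Fcrls, an Fc receptor-like gene, rose too (log2 fold change 1.01, SE 0.16, adjusted p = 0.000222). Without WT replicate 2, 9 macrophage markers fell.

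Secreted inflammatory factors were lower with them. Of 35 cytokines, chemokines and acute-phase genes 18 fell and 0 rose (median -0.43). Ccl3, a chemokine, was at 28.6, 39.6 and 29.6 CPM in WT and 13.7, 13.9 and 11.7 CPM in KO (log2 fold change -1.32, SE 0.15, adjusted p = 3.06e-06). Ccl12, a ligand of CCR2, was at 26.8, 40.4 and 27.01 CPM in WT and 11.8, 13.1 and 11.01 CPM in KO (log2 fold change -1.39, SE 0.16, adjusted p = 4.33e-06). Saa3, a serum amyloid A protein made in fat, was at 51.9, 49.8 and 38.3 CPM in WT and 29.4, 17.8 and 17.3 CPM in KO (log2 fold change -1.14, SE 0.17, adjusted p = 6.99e-05). Serpina3n, a secreted protease inhibitor, was at 538, 587 and 505 CPM in WT and 288, 283 and 312 CPM in KO (log2 fold change -0.88, SE 0.11, adjusted p = 1.09e-05). KO libraries were below WT libraries without overlap in these 4 genes. The summed level of the list did overlap, from 8257 to 9707 CPM in WT and from 7526 to 9061 CPM in KO. Of 47 genes of the lysosome and autophagy 18 fell and 4 rose (median -0.24). Ctsh, a cathepsin, was at 136, 144 and 139.5 CPM in WT and 86.6, 75.4 and 74.7 CPM in KO (log2 fold change -0.83, SE 0.11, adjusted p = 2.5e-05), Gaa, the acid glucosidase, at 267, 272 and 212 CPM in WT and 161, 166 and 158 CPM in KO (log2 fold change -0.63, SE 0.11, adjusted p = 0.000619), and Tfe3, a factor of lysosomal genes, at 47.8, 46.5 and 42.9 CPM in WT and 28.7, 31.9 and 29.4 CPM in KO (log2 fold change -0.61, SE 0.12, adjusted p = 0.00127). Falls numbered 11 among cytokine genes and 7 among lysosomal genes without WT replicate 2, and without WT replicate 1 or KO replicate 3, 11 lysosomal genes. Rises in the lysosome list numbered 2 without WT replicate 2 and 7 without WT replicate 3.

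Interferon-stimulated genes fell in 15 of 39 cases and rose in 1 (median -0.34). These genes answer interferon through an element that STAT and IRF factors bind. Promoter windows of 3 such genes are printed in the same way, again with the genes of 1 chromosome left out. The 3 have the smallest p among the rest that fell, hold the element and have a single listed start. Capitals mark matches on either strand to GAAANNGAA. Oas1a, an oligoadenylate synthetase, is at chr5:120907496-120907775 (minus strand), Bst2, the membrane tether of enveloped viruses, at chr8:71537443-71537722 (minus strand), and Stat2, a factor of the pathway itself, at chr10:128270248-128270527 (plus strand).
Oas1a: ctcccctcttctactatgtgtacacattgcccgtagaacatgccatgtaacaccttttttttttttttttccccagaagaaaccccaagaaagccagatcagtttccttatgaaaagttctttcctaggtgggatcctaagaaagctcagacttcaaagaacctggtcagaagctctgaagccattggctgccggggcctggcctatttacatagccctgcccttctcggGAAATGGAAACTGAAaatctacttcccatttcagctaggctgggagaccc
Bst2: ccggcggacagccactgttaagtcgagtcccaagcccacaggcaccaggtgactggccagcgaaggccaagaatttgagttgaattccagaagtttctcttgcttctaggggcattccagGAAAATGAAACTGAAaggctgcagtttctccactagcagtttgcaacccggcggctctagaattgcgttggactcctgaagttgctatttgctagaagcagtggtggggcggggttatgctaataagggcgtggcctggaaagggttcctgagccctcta
Stat2: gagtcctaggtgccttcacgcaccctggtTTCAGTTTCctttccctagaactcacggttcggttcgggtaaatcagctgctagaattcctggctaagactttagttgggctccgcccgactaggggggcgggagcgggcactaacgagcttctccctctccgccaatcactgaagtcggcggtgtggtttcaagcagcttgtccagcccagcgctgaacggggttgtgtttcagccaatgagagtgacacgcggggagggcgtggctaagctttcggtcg
Oas1a and Bst2 held 2 overlapping matches each and Stat2 held 1, read here on the other strand. Oas1a was at 23.1, 24.95 and 16.6 CPM in WT and 13.9, 11.4 and 12.1 CPM in KO (log2 fold change -0.80, SE 0.16, adjusted p = 0.00172). Bst2 was at 96.2, 126 and 88.3 CPM in WT and 71.3, 70.6 and 65.03 CPM in KO (log2 fold change -0.58, SE 0.12, adjusted p = 0.00241; adjusted p = 0.064 without WT replicate 2). Stat2 was at 23.2, 26.6 and 20.1 CPM in WT and 14.7, 14.96 and 15.3 CPM in KO (log2 fold change -0.64, SE 0.15, adjusted p = 0.00398; adjusted p = 0.0616 without WT replicate 2). Each KO library lay below each WT library in Oas1a, Bst2 and Stat2. The element was in 16 of 31 interferon-stimulated genes with a window (51.6%), beside 840 of all 10027 (8.38%), and in 69 of 904 genes that rose (7.63%) and 81 of 1019 that fell (7.95%). It overlapped the NRF1 motif in 0 promoters. Oasl1, a relative of the synthetases, was at 14.7, 16.7 and 11.4 CPM in WT and 8.91, 5.67 and 6.67 CPM in KO (log2 fold change -1.04, SE 0.19, adjusted p = 0.000715), and H2-D1, an MHC class I gene with close relatives, at 1103, 1111 and 964 CPM in WT and 791, 753 and 697 CPM in KO (log2 fold change -0.50, SE 0.11, adjusted p = 0.0033). Ifi27l2a was the member that rose (log2 fold change 0.50, SE 0.12, adjusted p = 0.00468; adjusted p = 0.0607 after length and GC correction). Falls numbered 4 without WT replicate 2 and 6 without KO replicate 2.

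Extracellular matrix genes fell widely. Of 55 matrix genes 29 fell and 1 rose (median -0.39), and of 21 collagens 11 fell and 0 rose. After length and GC correction 22 matrix genes fell and 1 rose, and the median was -0.21. The summed level of the list was 46752 to 56290 CPM in WT and 35205 to 41975 CPM in KO, with no overlap. Fn1, fibronectin, was at 2896, 3208 and 2444 CPM in WT and 1201, 1232 and 1974 CPM in KO (log2 fold change -0.96, SE 0.15, adjusted p = 0.000227). Hspg2, which encodes perlecan of basement membranes, was at 847, 872 and 547 CPM in WT and 238, 279 and 461 CPM in KO (log2 fold change -1.21, SE 0.18, adjusted p = 0.000109). Col15a1, a basement membrane collagen, was at 671, 703 and 533 CPM in WT and 345, 325 and 425 CPM in KO (log2 fold change -0.80, SE 0.13, adjusted p = 0.000183), and Col5a3, a fibrillar collagen chain, at 611, 590.1 and 456 CPM in WT and 277, 273 and 323 CPM in KO (log2 fold change -0.92, SE 0.12, adjusted p = 2.57e-05). In Fn1 and Hspg2, KO replicate 3 was the highest KO library and WT replicate 3 the lowest WT library, still without overlap. Postn, periostin, was the member that rose (log2 fold change 0.40, SE 0.14, adjusted p = 0.0402), and its call was lost without KO replicate 2 (adjusted p = 0.14), KO replicate 3 (0.0609), WT replicate 1 (0.213) or WT replicate 2 (0.154), with library size only (0.0726) and after length and GC correction (0.0985). Of 26 matrix proteases and their inhibitors 16 fell and 0 rose (median -0.37), and all 26 fold changes were below 0. Plau, urokinase, was at 233, 273 and 226 CPM in WT and 147, 147 and 129.7 CPM in KO (log2 fold change -0.79, SE 0.11, adjusted p = 5.54e-05), Mmp3, stromelysin, at 43.1, 43.4 and 36.1 CPM in WT and 22.04, 21.6 and 25.7 CPM in KO (log2 fold change -0.82, SE 0.13, adjusted p = 0.00019), and Timp2, an inhibitor of such proteases, at 549, 496 and 433 CPM in WT and 314, 331 and 229 CPM in KO (log2 fold change -0.76, SE 0.13, adjusted p = 0.000434). Falls without WT replicate 2 numbered 17 in matrix genes and 6 in proteases and inhibitors, and without WT replicate 1, KO replicate 1 or KO replicate 2, 10 of the latter.

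Part of the genes of stromal signals and of vessels fell too. Of 44 genes of TGF-β, activin and BMP signalling 13 fell and 1 rose (median -0.28, and -0.16 after length and GC correction). Smad7, its feedback inhibitor, was at 39.5, 33.4 and 35.96 CPM in WT and 22.98, 23.5 and 25.4 CPM in KO (log2 fold change -0.60, SE 0.13, adjusted p = 0.00236). Of 31 Wnt pathway genes 6 fell (19.4%, beside 10.6% of all genes) and 0 rose (median -0.17). After length and GC correction 5 of them fell and 2 rose (median -0.05). Of 20 endothelial markers 8 fell and 0 rose (median -0.41). Lyve1, a hyaluronan receptor that lymphatic endothelium and resident macrophages share, was at 20.9, 21.9 and 25.5 CPM in WT and 6.94, 6.69 and 6.77 CPM in KO (log2 fold change -1.75, SE 0.16, adjusted p = 9.24e-08). Vwf, von Willebrand factor, was at 19.8, 18.8 and 13.1 CPM in WT and 6.19, 7.57 and 6.62 CPM in KO (log2 fold change -1.33, SE 0.18, adjusted p = 2.87e-05), and Cdh5, the cadherin of endothelial junctions, at 114, 118 and 92.03 CPM in WT and 67.7, 76.5 and 63.3 CPM in KO (log2 fold change -0.64, SE 0.12, adjusted p = 0.000869). Cspg4, the pericyte proteoglycan NG2, was at 37.3, 34.4 and 24.3 CPM in WT and 12.8, 13.9 and 18.1 CPM in KO (log2 fold change -1.09, SE 0.16, adjusted p = 0.000109), while the contractile gene Tagln was at 498, 548 and 480.02 CPM in WT and 822, 682 and 638 CPM in KO (log2 fold change 0.49, SE 0.12, adjusted p = 0.00555). Of 17 smooth muscle and pericyte markers 3 rose (17.6%) and 2 fell (11.8%), beside 8.94% and 10.6% of all genes. Their summed level overlapped, at 1817 to 2164 CPM in WT and 2046 to 2504 CPM in KO. Of 8 tested Schwann cell markers 3 fell. The counts of smooth muscle rises, smooth muscle falls and Schwann cell falls were 2, 1 and 1 without WT replicate 2. Without WT replicate 3 they were 2, 4 and 5. TGF-β genes that fell numbered 5 without WT replicate 2 and 8 without WT replicate 1 or KO replicate 2, and endothelial markers 5 without WT replicate 2.

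A part of the genes of RNA processing and of the proteasome rose by small amounts, and most members of the RNA processing lists did not pass. Of 61 core spliceosome genes 17 rose and 0 fell (median 0.16). Prpf38a, a factor of spliceosome activation, was at 40.6, 34.5 and 38.7 CPM in WT and 60.3, 55.7 and 55.9 CPM in KO (log2 fold change 0.59, SE 0.12, adjusted p = 0.00123), and Snrpe, a core Sm protein, at 25.6, 23.4 and 37.5 CPM in WT and 55.2, 48.8 and 42.6 CPM in KO (log2 fold change 0.75, SE 0.15, adjusted p = 0.0014). Of 45 SR proteins and hnRNPs 11 rose and 2 fell (median 0.21). Hnrnpa0, an RNA-binding protein, was at 331, 248 and 250.3 CPM in WT and 185, 192 and 137 CPM in KO (log2 fold change -0.69, SE 0.13, adjusted p = 0.00108). The count for this list moved with single libraries, with 0 rises without WT replicate 2, 5 without WT replicate 1, 7 without KO replicate 1, 6 without KO replicate 2 and 20 without WT replicate 3, and with 7 after length and GC correction (median 0.07). The spliceosome had 9 rises without WT replicate 2 and 11 without KO replicate 2. These are gene-level counts, and splicing itself was not measured. Of 31 proteasome subunits 16 rose and 0 fell (median 0.30), 10 of 14 of the core particle and 6 of 17 of the regulatory particle. Psmd6, a lid subunit, was at 118, 129.6 and 141 CPM in WT and 193, 195 and 195 CPM in KO (log2 fold change 0.58, SE 0.11, adjusted p = 0.000779), and Psma1, a core subunit, at 231, 237 and 279 CPM in WT and 360.4, 349.6 and 370.1 CPM in KO (log2 fold change 0.53, SE 0.11, adjusted p = 0.00192), with no overlap in either. Proteasome rises numbered 5 without WT replicate 2 or KO replicate 1, 8 without WT replicate 1, 9 without KO replicate 2, 9 with library size only and 10 after length and GC correction (median 0.15). Of 76 cytosolic ribosomal proteins 14 rose and 0 fell (median 0.15). Rises numbered 7 without WT replicate 2 and 6 without KO replicate 1 or KO replicate 2. After length and GC correction 11 rose and 5 fell, and the median was 0.01. Rps27a, a fusion of ubiquitin and a ribosomal protein, had 1 library apart, at 126, 127 and 117 CPM in WT and 204, 587 and 343 CPM in KO (log2 fold change 1.62, SE 0.21, adjusted p = 2.02e-05). Ribosomal protein genes have many processed copies, so that such values are uncertain.

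Stress and death genes are given here in 5 lists, beside the 8.94% higher and 10.6% lower of all genes. Survival of the cells was not measured. Of 34 genes of the integrated stress response 4 rose and 6 fell (median 0.12). Gdf15, a stress-induced secreted factor, was at 134, 162 and 89.9 CPM in WT and 49.2, 53.9 and 42.96 CPM in KO (log2 fold change -1.40, SE 0.15, adjusted p = 1.42e-06), and Ddit4, an inhibitor of mTORC1, at 128, 149 and 101 CPM in WT and 59.6, 63.1 and 65.5 CPM in KO (log2 fold change -1.01, SE 0.13, adjusted p = 1.09e-05). Both fell without overlap. Ddit3, which encodes the factor CHOP, was at 30.4, 34.2 and 33.3 CPM in WT and 54.6, 45.1 and 41.4 CPM in KO (log2 fold change 0.52, SE 0.13, adjusted p = 0.00613), a rise not called after length and GC correction (adjusted p = 0.112). Of 29 genes of the unfolded protein response 3 fell and 0 rose, and of 29 p53 targets 1 rose and 3 fell, shares near or below those of all genes. The shares in the death lists were near them too. Cdkn1a, the p53-induced cell cycle inhibitor, was at 137, 143 and 102 CPM in WT and 84.8, 89.7 and 78.3 CPM in KO (log2 fold change -0.60, SE 0.12, adjusted p = 0.00192), and Trp53 itself did not pass (-0.16, adjusted p = 0.342). Of 34 apoptosis genes 4 rose (11.8%) and 3 fell (8.82%). The rises included Aifm1, a flavoprotein of the mitochondrial intermembrane space (0.67, SE 0.11, adjusted p = 0.000222), beside Cycs. Casp8, an initiator caspase, was at 57.4, 64.9 and 62.7 CPM in WT and 58.6, 63.5 and 59.04 CPM in KO (log2 fold change -0.03, SE 0.11, adjusted p = 0.882). Of 26 genes of necroptosis and pyroptosis 2 rose (7.69%) and 3 fell (11.5%). The effectors Ripk3 (-0.21, adjusted p = 0.218), Mlkl (0.05, adjusted p = 0.834) and Gsdmd (-0.06, adjusted p = 0.823) did not pass. Hmgb1, a chromatin protein that dying cells release, was at 94.5, 119 and 142 CPM in WT and 167, 159 and 185 CPM in KO (log2 fold change 0.53, SE 0.13, adjusted p = 0.00586). With WT replicate 1, WT replicate 2, KO replicate 1 or KO replicate 2 left out, 2 stress response genes rose, and falls numbered 3 without WT replicate 1 and 2 without WT replicate 2. Rises numbered 7 without WT replicate 3 and 8 after length and GC correction. Leaving out WT replicate 2 gave 0 falls in the unfolded protein response, 1 among p53 targets, 0 in apoptosis and 1 in necroptosis and pyroptosis, and 2 apoptosis genes rose. Falls in apoptosis numbered 1 without KO replicate 3, 5 with library size only and 7 after length and GC correction. Without KO replicate 1, KO replicate 2 or KO replicate 3, 1 gene of necroptosis and pyroptosis rose. Without WT replicate 3 the unfolded protein response and the p53 targets had 5 falls each, and after length and GC correction 6 each.

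The effect in culture differed from that in tissue in many genes, while part of the calls had the same direction. The difference between both effects, tested as an interaction over 12 libraries, passed for 7061 of 14463 genes (48.8%), 3052 with the culture effect above and 4009 with it below the tissue effect. With library size only these were 1198 and 7331, since the median difference over all genes went from -0.22 to -0.87. In WAT at day 42, 8542 of 16293 genes (52.4%) differed. Of 1109 genes higher in culture and tested in both settings, 269 were higher and 379 lower in WAT. Of 1310 genes lower in culture, 320 were lower and 466 higher in WAT. Of 29 core adipocyte genes 24 fell and 0 rose in WAT, and the culture effect was above the tissue effect in 24 (21 with library size only, and below it in 1). Of 60 respiratory chain genes 57 fell in WAT, and the culture effect was above in 59 (54 with library size only, and below it in 1). Of 28 macrophage markers 24 rose in WAT, and the culture effect was below in 24 (26 with library size only). Of 57 matrix genes 35 rose in WAT, and the culture effect was below in 43 (51 with library size only). Each of these 4 lists had 0 members on the other side at TMM scaling. Genes of fatty acid synthesis and cholesterol genes fell in part in both settings. In WAT 20 of 27 and 22 of 30 fell, and 2 and 5 rose. The culture effect was above the tissue effect in 18 and 21 of them and below it in 2 and 5. Culture and tissue differ in the age of the animals, in the cells present and in where Cre was active, which cannot be told apart here.

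**Figure D5:**
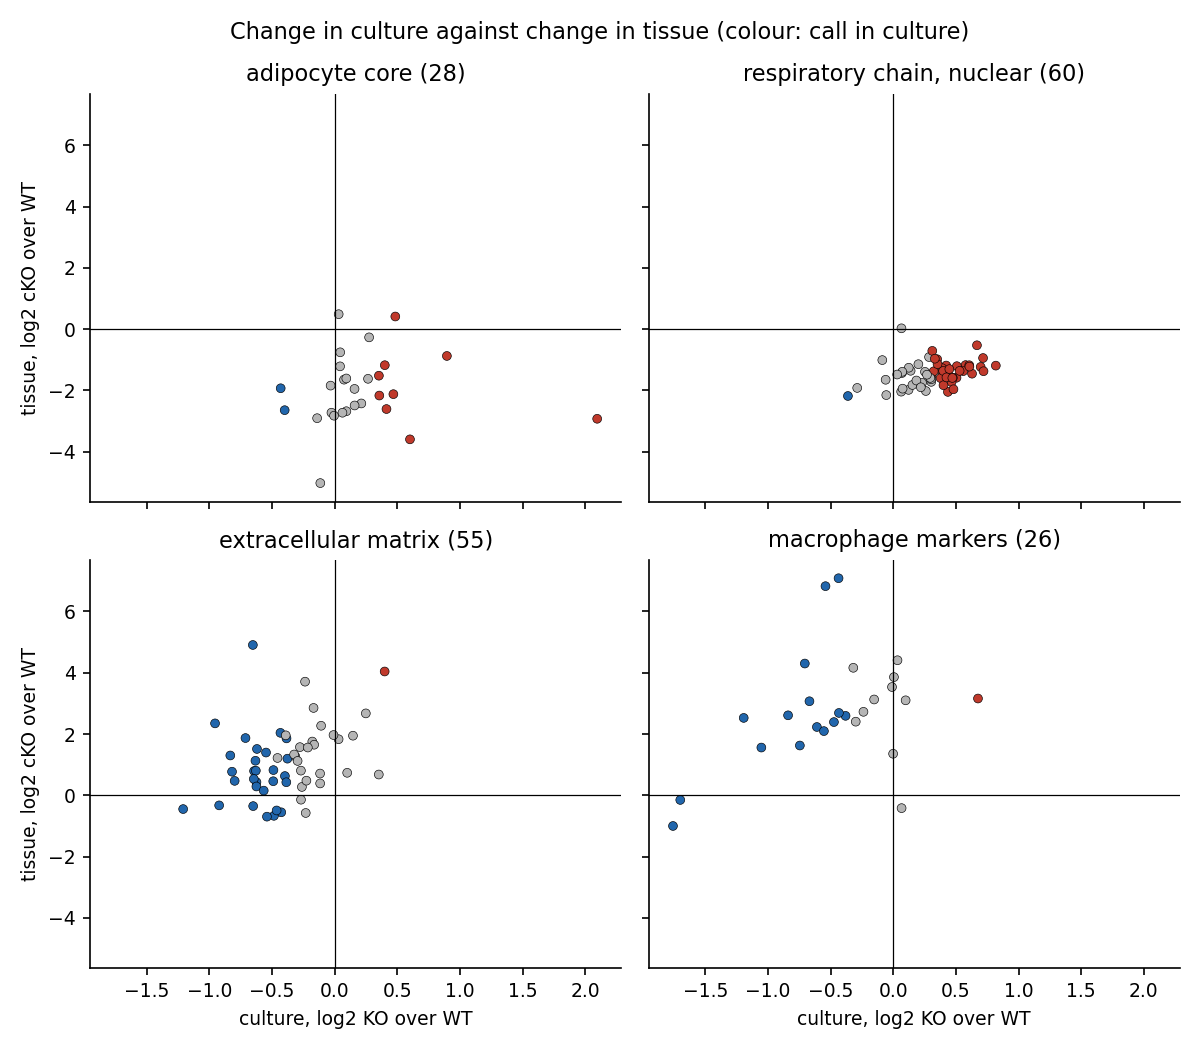
Log2 fold change in culture (KO over WT, x axis) against that in WAT (cKO over WT, y axis) for members of 4 lists, coloured by their call in culture. Macrophage markers and matrix genes lie mostly to the left and above 0, and respiratory chain genes mostly to the right and below 0.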

How the data were processed

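RNA of 6 cultures, and of 6 WAT samples used for the interaction only, was taken up in TRIzol, and libraries were built with an MGIEasy mRNA kit, as the protocols of the labels say. What the authors deposited are read counts for each gene without normalization, which the whole values and differing totals bear out. Named in the submitters' processing notes are FastQC 0.11.2, cutadapt 1.11, HISAT2 2.1.0 and GRCm38. The sources used here do not name the counting tool, its annotation or its strand setting, so reads of overlapping, antisense or near-identical genes cannot be assigned with certainty. No 2 libraries of a group were alike within sampling noise.

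After filterByExpr (minimum count 10) and TMM scaling (trimmed mean of M-values), counts went into edgeR's quasi-likelihood test (version 4.0.16, R 4.3.3) on the 6 culture libraries, with Benjamini-Hochberg adjustment over all 12587 genes at 0.05. The SE is the size of the log2 fold change over the square root of F. The interaction was fitted on all 12 libraries. The biological coefficient of variation in culture was 0.114. The alternatives were RLE size factors, library size only, no count filter, a replicate block, omission of each library, DESeq2 1.42.0, voom of limma 3.58.1, 1 fit over all 4 groups, thinning to the smallest total, no mitochondrially encoded genes, a 2-fold minimum, and removal of a trend with transcript length and GC content (longest GENCODE transcript, known for 99.2% of genes).

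The comparison, the gene lists and the rules were chosen with earlier results of these data known, and lists are described by counts and medians with no test. The rule for named genes took Fam50a and Fam50b, the 20 largest rises and falls among called genes whose groups do not overlap and average 5 CPM or more, up to 4 members per list and direction with the smallest p, 20 set genes, and, in each direction, the 5 strongest genes by interaction p. Only some of these are printed, and a few are not reported here. Plxna3, Lage3 and the neighbours of Sirt3 were named after their values were seen, and Atp5h and Stat2 by the promoter rule. Coordinates and promoters are those of RefSeq on GRCm38.p6.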

Additional observations from a re-analysis of the deposited data

Results flagged for a closer look

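The KO against WT difference was compared between culture and WAT by the interaction term in edgeR, and 8 of the 10 genes with the smallest p by direction are given here because their effects in the 2 settings differed by that test. The labels call the tissue samples cKO and the cultures KO, and the tables of culture and tissue were deposited separately. The difference comes from the fit over all 12 libraries, and the values in culture and tissue from their own fits.

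In 3 genes the value in culture lay above that in tissue. Ntrk2, a neurotrophin receptor, had a log2 fold change of 0.13 in culture and of -3.54 in tissue, a difference of 3.63 (adjusted p = 9.33e-08). Hsd11b1, the enzyme that regenerates active glucocorticoid, had a log2 fold change of -0.23 in culture and of -5.95 in tissue, a difference of 5.68 (adjusted p = 2.95e-07). Acss2, the cytosolic acetyl-CoA synthetase, had a log2 fold change of -0.50 in culture and of -5.40 in tissue, a difference of 4.87 (adjusted p = 8.29e-07).

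In the other 5 it lay below. Trem2, a receptor of lipid-handling macrophages, had a log2 fold change of -0.44 in culture and of 7.08 in tissue, a difference of -7.55 (adjusted p = 3.03e-08). Ifi204, an interferon-inducible gene, had a log2 fold change of 0.26 in culture and of 3.78 in tissue, a difference of -3.55 (adjusted p = 8.29e-07). Pla2g4a, a cytosolic phospholipase, had a log2 fold change of 0.16 in culture and of 3.99 in tissue, a difference of -3.85 (adjusted p = 1.32e-06). Tlr13, a toll-like receptor for bacterial RNA, had a log2 fold change of -0.28 in culture and of 5.50 in tissue, a difference of -5.82 (adjusted p = 2.02e-06). Lilrb4a, an inhibitory receptor of myeloid cells, had a log2 fold change of -0.15 in culture and of 4.57 in tissue, a difference of -4.76 (adjusted p = 2.05e-06). With library size only in place of TMM scaling, each of these 8 differences kept its sign and stayed past the threshold. In each of the 8 genes the change in tissue was larger in size than that in culture. Hsd11b1, Acss2, Ifi204 and Pla2g4a had the same sign in both settings. In the culture fit Acss2 passed the threshold, while Ifi204 and Tlr13 did not.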

How the results depend on the processing

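The number of genes that differed in culture, 2459, was 2475 with RLE size factors, 2405 with DESeq2, 2462 with limma voom and 2374 after thinning to the smallest total, and no call changed its sign in these fits. Of the 2459 calls, 767 (31.2%) were made in each of the 6 fits that left out 1 library. In those fits, which have fewer samples, 897 to 3380 genes passed, 399 to 1715 higher and 498 to 1665 lower. In 1 fit over all 4 groups 146 passed (58 higher, 88 lower), and with a 2-fold minimum 188 (56 higher, 132 lower). With the replicate block 3824 passed (1816 higher, 2008 lower), and all 2459 were among them. Same-numbered WT and KO libraries had deviations from their group means that correlated at 0.18, 0.03 and 0.24 for numbers 1, 2 and 3. WT replicates 1 and 3 correlated best with their own number, and WT replicate 2 with KO replicate 1 (0.07). With 3 libraries per group these values cannot decide whether the numbers pair libraries, and the labels do not say so. Among genes printed, the block added Pdgfra (adjusted p = 0.0065), Ifi204 (0.0262) and Tlr13 (0.034) and ended no call. Length and GC correction gave 17 of the 2459 genes the other sign, with the cause not tested. The fold change of Fam50a ranged from -0.34 to -0.16 with 1 library left out (adjusted p from 0.0258 to 0.461), was -0.25 with the replicate block (adjusted p = 0.0509) and was -0.27 after length and GC correction. The interaction passed for 6193 to 7582 genes with 1 library left out, for 6668 with the replicate block and for 8529 with library size only. Depth limits the rarer genes: the median SE was 0.38 for genes under 2 CPM and 0.12 from 20 CPM, and the smallest called change was 0.90 and 0.30 on the log2 scale.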

Other observations

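Cyp2e1, Sirt3 and Cox8b, which all rose, lay close together on chromosome 7 (GRCm38). Cyp2e1 (140763819 to 140774990), Sirt3 (140863663 to 140882309) and Cox8b (140898942 to 140900446) span 136.6 kb, and Psmd13 (140882394 to 140898642), a proteasome lid subunit that starts next to Sirt3, rose too (log2 fold change 0.39, SE 0.11, adjusted p = 0.0206). Of 9 other tested genes within 150 kb of Sirt3, 3 rose (33.3%, beside 8.94% of all genes) and 0 fell. Ric8a, which overlaps the end of Sirt3, was at -0.09 (adjusted p = 0.606) and Bet1l at -0.05 (adjusted p = 0.833). Without strand information, reads in the overlap of Sirt3 and Ric8a cannot be assigned. This stretch was picked after its values were seen, and no test was made of it.

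Several secreted factors and enzymes not described above changed, of which Aldoc is 1 of the 3 glucose genes already counted as lower. Nampt, the rate-limiting enzyme of NAD salvage that also serves as an adipokine, was at 185, 177 and 224 CPM in WT and 297, 277 and 315 CPM in KO (log2 fold change 0.60, SE 0.11, adjusted p = 0.000951). Lcn2, lipocalin 2, was at 6.25, 9.24 and 7.37 CPM in WT and 4.78, 3.25 and 2.39 CPM in KO (log2 fold change -1.19, SE 0.24, adjusted p = 0.00168), and Aldoc, an aldolase of glycolysis, was at 16.6, 20.8 and 18.8 CPM in WT and 6.38, 9.85 and 7.75 CPM in KO (log2 fold change -1.21, SE 0.17, adjusted p = 5.54e-05). Dnm1, dynamin 1, was at 41.98, 37.6 and 31.4 CPM in WT and 13.8, 16.1 and 12.3 CPM in KO (log2 fold change -1.39, SE 0.15, adjusted p = 8.73e-07). KO and WT libraries did not overlap in these 4 genes. Of 20 glucocorticoid-responsive genes 6 fell and 1 rose (median -0.22). With 1 library left out 3 to 6 fell, the fewest without WT replicate 1 and without KO replicate 2, and after length and GC correction 11 fell. Of 18 tested clock genes 3 fell (16.7%, beside 10.6% of all genes) and 1 rose (5.56%, beside 8.94%), with a median of -0.06. With 1 library left out 1 to 5 fell. Bhlhe41, a transcriptional repressor of the clock, fell and was at 29.5, 27.6 and 28.4 CPM in WT and 17.9, 20.7 and 18.1 CPM in KO (log2 fold change -0.59, SE 0.13, adjusted p = 0.00381).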
